A study of Mus musculus with 9 samples.

Results

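Genes of the p53 pathway were followed in serum-starved mouse embryonic fibroblasts with different alleles of Rb1, which encodes the retinoblastoma protein. The set was given as 32 gene symbols: p53 itself, regulators of p53 and genes that p53 is known to activate. Each symbol was read from its brightest probe set, by the mean of the 9 arrays, and 28 of the 32 genes were measured among 19938 genes tested. Trp53, Bax, Gdf15 and Fdxr were not analysed here, so the level of the p53 transcript itself is not given. None of the 28 genes had more than 1 probe set. The fibroblasts carried wild-type Rb1 (WT, Rb +/+), the ΔG allele on both copies (Rb ∆G/∆G), which is mutated at the site of the protein that most E2F factors bind, or no functional copy (null, Rb -/-). Each genotype had 3 arrays, and all cells were plated on 15 cm dishes and deprived of serum after 24 h (0.1% in the medium), which brings normal fibroblasts to quiescence. The labels do not give the age of the embryos, the part of Rb1 that the null allele lacks, or whether each array had an embryo of its own. The series text describes the genotypes as paired by litter, but no label says which arrays share a litter. The tests therefore reflect variation among these 9 samples, part of which may be technical.

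p53 is a transcription factor that is kept scarce by the ubiquitin ligase Mdm2 and accumulates after DNA damage or oncogenic stress. It then activates genes of cell cycle arrest, apoptosis, DNA repair and metabolism, and also Mdm2, Ccng1 and Ppm1d, whose products act back on p53. In fibroblasts, loss of the retinoblastoma protein frees E2F factors, and free E2F can raise p53 activity through p19Arf, a product of Cdkn2a that restrains Mdm2. The comparisons below ask how far transcripts of the pathway differ when only the common E2F contact is lost and when the whole protein is lost.

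The data are log2 RMA signals, a scale on which a difference of 1 is a doubling. Array medians over all probe sets lay between 6.33 and 6.401. Rb1 itself averaged 9.08 ± 0.13 on the WT arrays, 9.61 ± 0.13 on the ΔG arrays and 8.31 ± 0.23 on the null arrays (SD, n = 3). The null change of −0.77 passed (limma adjusted p = 0.0011) and the ΔG change of 0.53 did not (adjusted p = 0.075), but probes outside the deleted part would still report RNA, so this does not check the null label. Fibroblast markers were high on every array, with a mean over 9 measured genes of 10.8 to 11.1 in WT and ΔG and 10.5 to 10.6 in null, and epithelial markers lay at 5.66 to 5.84. Macrophage markers varied between arrays, with a mean over 12 genes of 5.53 to 6.76 in WT, 5.91 to 7.46 in ΔG and 5.67 to 6.10 in null. No macrophage marker passed the test against WT. Xist was at 11.4 to 11.98 on the null arrays and WT replicate 3 and at 4.24 to 4.45 on all other arrays, so sex pattern and genotype cannot be told apart between ΔG and null. On the first principal component ΔG replicate 3 was at −0.30, against −13.9 and −11.5 for the other ΔG arrays.

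Sequence before the gene start was available for 24 of the 32 genes, as the 250 bases upstream of each start in the RefSeq table for GRCm38.p6. The p53 consensus decamer, the unit that p53 response elements carry in tandem, was searched on both strands, and it reads the same on either. It was found for 9 of these 24 genes (37.5%) and for 8.20% of the 27025 genes in the table. The E2F motifs TTTCCCGC and TTTGGCGC, also searched on both strands, were found for none of the 24 genes and for 1.51% of all genes. A match is a description of the sequence and not a measured binding site, and many p53 elements lie outside this window, as in the first intron of Mdm2. The whole windows of Ppm1d and Dram1 are shown because these genes rose in null cells with the lowest adjusted p-values, one with and one without the decamer. Each is written 5′ to 3′ on the strand of the gene, with the decamer in capitals. The Ppm1d window is chr11:85311004-85311253 on the plus strand, and its decamer starts 132 bases before the gene start. The Dram1 window is chr10:88357076-88357325 on the minus strand.
Ppm1d: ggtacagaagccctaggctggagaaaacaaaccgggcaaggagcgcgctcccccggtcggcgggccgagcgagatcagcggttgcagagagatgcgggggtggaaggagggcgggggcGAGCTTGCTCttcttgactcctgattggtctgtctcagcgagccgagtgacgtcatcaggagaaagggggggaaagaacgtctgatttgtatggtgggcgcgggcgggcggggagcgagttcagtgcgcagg
Dram1: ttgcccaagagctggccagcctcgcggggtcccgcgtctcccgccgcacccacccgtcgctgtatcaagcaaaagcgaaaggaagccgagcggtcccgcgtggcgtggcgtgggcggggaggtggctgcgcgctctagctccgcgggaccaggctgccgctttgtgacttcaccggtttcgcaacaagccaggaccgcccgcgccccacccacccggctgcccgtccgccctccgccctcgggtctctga

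The other measured genes with the decamer are shown with 15 bases on each side, or up to the gene start, so that the matches can be compared. They lie at chr10:117710920-117710959 (Mdm2, minus), chr11:40755447-40755486 (Ccng1, minus), chr10:41887251-41887290 (Sesn1, plus) and chr7:78895922-78895961 (Aen, plus). Those of Ei24 and Polk lie at chr9:36797335-36797359 and chr13:96519394-96519433, both on the minus strand.
Mdm2: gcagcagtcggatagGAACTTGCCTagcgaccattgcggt
Ccng1: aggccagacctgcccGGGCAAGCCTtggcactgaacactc
Sesn1: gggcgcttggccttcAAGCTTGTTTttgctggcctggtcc
Aen: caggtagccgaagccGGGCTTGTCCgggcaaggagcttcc
Ei24: tgccccgtgcggcccGGGCATGCCC
Polk: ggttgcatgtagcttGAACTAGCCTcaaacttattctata

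As a set, the p53 pathway genes had slightly higher signal in ΔG than in WT, though no single gene passed the test. In null the size of the difference depended on single arrays. Averaged over the set, WT stood at 9.06 ± 0.04, ΔG at 9.22 ± 0.03 and null at 9.20 ± 0.18 (SD over 3 arrays). The ΔG arrays, at 9.19, 9.25 and 9.22, all lay above the WT arrays, at 9.01, 9.09 and 9.07. The null arrays did not separate from WT: replicates 1, 2 and 3 were at 9.15, 9.40 and 9.05. The median log2 change was 0.15 in ΔG and 0.12 in null, against −0.018 and −0.010 over all genes. The null median was 0.053 without null replicate 2 and 0.21 without null replicate 3. In ΔG, 24 of 28 genes had a log2 change above 0, against 43.3% of all genes, and in null 23 did, against 47.5%. Both comparisons use the same WT arrays, so the likeness of these counts is no separate observation. Against null, the ΔG median was 0.029, and it was −0.030 after repeated quantile normalisation of the arrays, so no direction is given for that comparison.

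**Figure D1:**
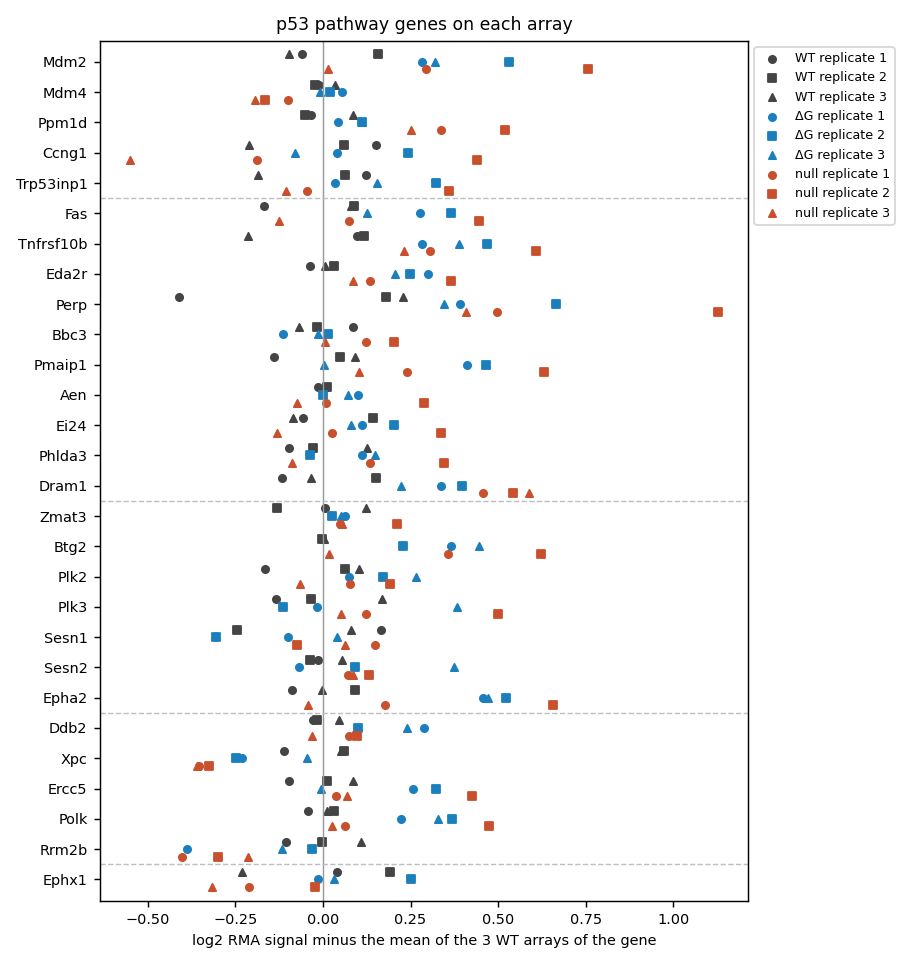
Each row is a p53 pathway gene and each point an array; the x axis is log2 RMA signal minus the mean of the 3 WT arrays, colour marks the genotype, shape the replicate and dashed lines the functional groups. Most ΔG points lie to the right of 0, and null replicate 2 (square) is the rightmost null array for 24 of 28 genes.

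In the mean of the p53 pathway genes, the null arrays differed among themselves more than the arrays of the other groups did. On the first principal component over all genes the null arrays lay close together, at 24.2 to 27.4. Null replicate 2 had the highest null value for 24 of 28 genes, whereas it did so for 44.6% of all genes. Replicate 2 also had the highest mean within WT (9.09) and within ΔG (9.25). It was the highest array for 11 of 28 genes in WT and 16 in ΔG, against 39.3% and 39.9% of all genes. In WT, replicate 3 was highest for more of them, 13. Null replicate 3 had the lowest null value for 22 of the 28, against 47.0% of all genes. It also had the lowest 99th percentile of signal of all 9 arrays, 11.01 against 11.1 to 11.4. After repeated quantile normalisation the p53 pathway mean was 9.17, 9.37 and 9.15 on null replicates 1, 2 and 3, and replicate 2 was still highest for 23 of 28 genes. With that scaling all 3 null arrays lay above the WT arrays, which were at 8.99, 9.05 and 9.09. Within groups, the median SD of a p53 pathway gene was 0.156, against 0.107 for all genes. Most genes of the set are brighter than the median gene, and the SD was not compared with genes of like brightness.

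**Figure D2:**
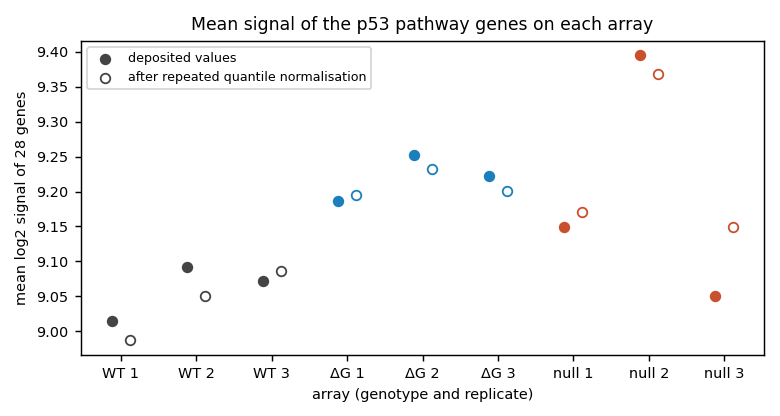
The mean log2 signal of the 28 p53 pathway genes on each of the 9 arrays, from the deposited values (filled) and after repeated quantile normalisation (open). Null replicate 2 is highest at 9.40 and 9.37, and null replicate 3 moves from 9.05 to 9.15.

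Most p53 pathway genes were brightly expressed in all genotypes. Their mean signal over all arrays ran from 6.35 for Ddb2 to 11.98 for Ccng1, the 45.6th and 99.7th percentile of all genes. Bright genes pass the test more often than dim ones. Shares are also given below for the 10851 genes at least as bright as Ddb2, a reference chosen after the data were seen.

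The first comparison set ΔG against WT. None of the 28 genes passed the threshold of 0.05 for limma's adjusted p, against 0.813% of all genes (0.602% higher and 0.211% lower) and 1.27% of the bright ones. In this fit 10 of 28 had an unadjusted p under 0.05, against 11.8% of all genes. Of these, 9 were higher, against 5.3% of all genes, and Xpc was lower, against 6.46%. On 10 genes every ΔG array lay above every WT array, against 7.05% of all genes and 9.55% of the bright ones, and none lay wholly below, against 9.48%. None of the fibroblast or macrophage markers was called in this comparison. Intervals of single genes stayed under a doubling: the highest upper bound of a 95% interval was a log2 change of 0.91, for Perp. In bulk RNA, more signal per cell and more cells with signal cannot be told apart.

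**Figure D3:**
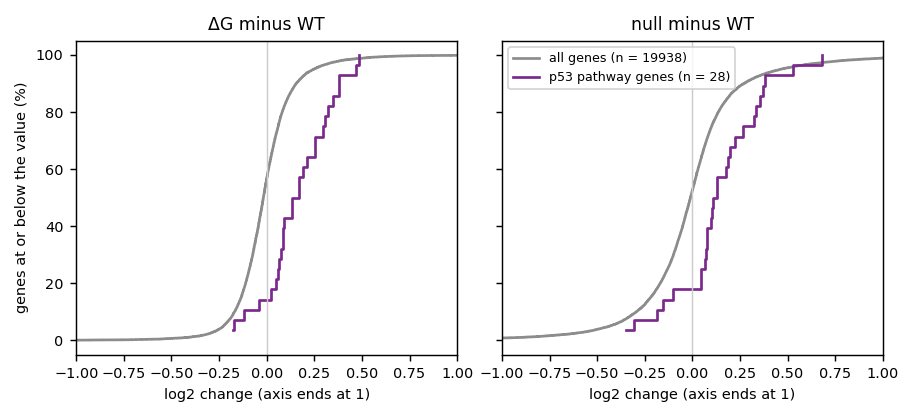
The share of genes at or below each log2 change, for all 19938 genes (grey) and the 28 p53 pathway genes (purple), in ΔG minus WT (left) and null minus WT (right). The purple curve is shifted to the right in both panels, with medians of 0.15 and 0.12 against −0.018 and −0.010.

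The second comparison set null against WT. Of the 28 genes, 4 rose and 1 fell by limma's adjusted p. These 5 genes are 17.9% of the set, close to the 18.4% called among all genes and below the 27.6% called among the bright ones. By direction, the 4 that rose stood against 8.38% of all genes, and the 1 that fell against 10.1%. An unadjusted p under 0.05 was found for 7 higher and 3 lower genes, against 13.5% and 16.6% of all genes, 30% together. Every null array lay above every WT array for 8 genes, against 15.7% of all genes and 20% of the bright ones, and below for 3, against 18.9%. After repeated quantile normalisation 10 genes passed, 8 higher and 2 lower, with 19.6% called among all genes. Of the 9 fibroblast markers 7 were called in null against WT, beside the lower marker mean given above, and their part in the results for null was not tested.

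In the third comparison, ΔG against null, no gene of the set passed, against 8.71% of all genes (4.44% higher and 4.27% lower) and 12.5% of the bright ones. Of the 28, 5 had an unadjusted p under 0.05 in limma, against 23.1% of all genes. Mdm4, Ddb2 and Ephx1 were the higher ones (11.7% of all genes) and Ppm1d and Dram1 the lower ones (11.4%). Every ΔG array lay above every null array for 4 genes, against 13.8% of all genes and 19.5% of the bright ones, and below for 2, against 13.3%. A log2 change above 0 was found for 17, against 47.9%. The 95% intervals of this difference ran from −0.65 (lower bound, Perp) to 0.61 (upper bound, Ccng1) on the log2 scale. These bounds belong to genes with wide spread, and intervals of steadier genes such as Mdm4 (SE 0.06) were narrower.

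**Figure D4:**
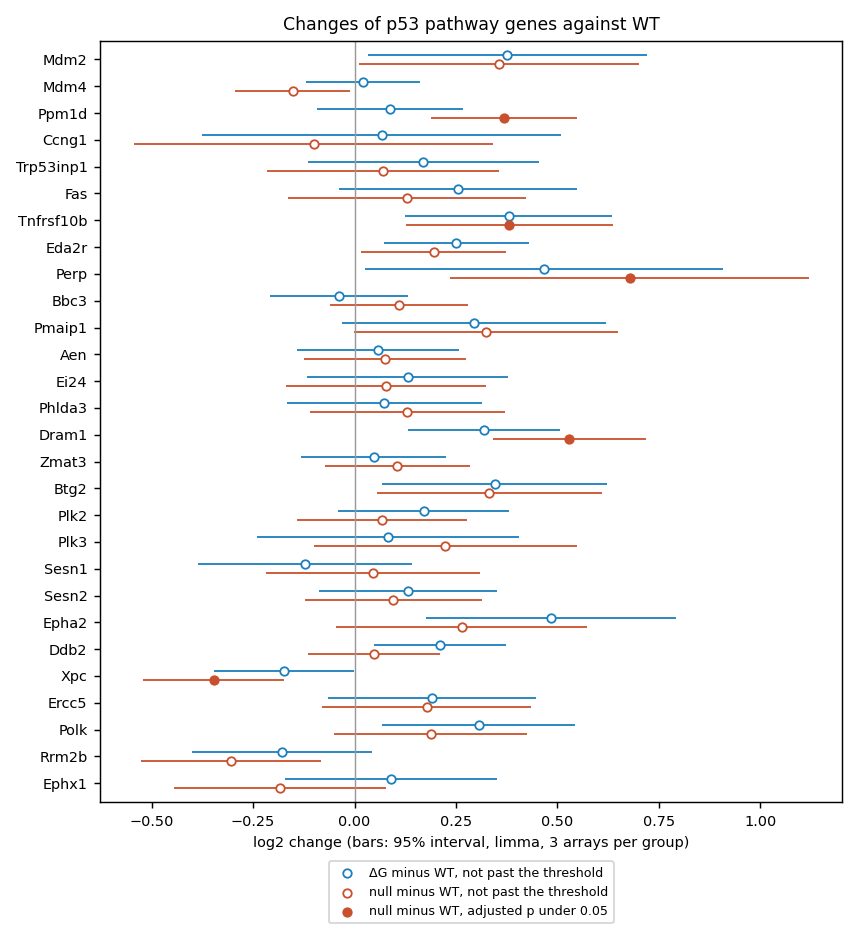
Log2 changes of the 28 genes against WT with 95% intervals from limma, ΔG in blue and null in orange; filled points passed an adjusted p of 0.05. The 5 filled points are all in null minus WT: Ppm1d, Tnfrsf10b, Perp and Dram1 to the right and Xpc to the left of 0.

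Among the regulators of p53, Ppm1d rose in null cells. Ppm1d encodes the phosphatase Wip1, which removes activating phosphates from p53 and from the kinase Atm. The WT arrays read 9.32, 9.30 and 9.44, the ΔG arrays 9.39, 9.46 and 9.46 and the null arrays 9.69, 9.87 and 9.60. All null arrays lay above all WT and ΔG arrays, while ΔG overlapped WT. The rise in null was 1.29-fold (log2 change 0.37, SE 0.08, limma adjusted p = 0.0091), and in ΔG the log2 change was 0.088 (adjusted p = 0.76). Between ΔG and null the difference was −0.28 (SE 0.08, adjusted p = 0.057), and it passed with array weights (0.017), with repeated quantile normalisation (0.020) and without null replicate 3 (0.046). Set against WT replicate 3 alone, the WT array with the sex pattern of the null arrays, Ppm1d was 0.28 higher in null. With 1 WT array that is a value without a spread of its own, as are the like values below, and no test is read from it. With Y-linked signal added to the model the change was 0.27 (adjusted p = 0.21).

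Mdm2, the ligase that degrades p53 and is itself induced by it, was at 10.54, 10.76 and 10.50 in WT, 10.88, 11.13 and 10.92 in ΔG and 10.90, 11.36 and 10.62 in null. Every ΔG array lay above every WT array, whereas null replicate 3 lay within the WT range. The log2 changes were 0.38 in ΔG and 0.36 in null (SE 0.16 for both, limma adjusted p = 0.38 and 0.15). Mdm2 passed in null without null replicate 3, with a log2 change of 0.53 (adjusted p = 0.032), and after repeated quantile normalisation, with 0.47 (adjusted p = 0.015). Mdm4, the relative of Mdm2 that masks the activation domain of p53, varied little. It was at 9.20, 9.19 and 9.25 in WT, 9.26, 9.23 and 9.20 in ΔG and 9.11, 9.05 and 9.02 in null. All null arrays lay below all others, by 0.15 against WT, but the difference did not pass (SE 0.06, adjusted p = 0.13).

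Ccng1, which encodes cyclin G1, a feedback regulator of p53, had the brightest signal of the set. It stood at 12.14, 12.05 and 11.78 in WT, 12.03, 12.23 and 11.91 in ΔG and 11.80, 12.43 and 11.44 in null. The 3 groups overlapped, and the null arrays spanned the highest and the lowest value. Its log2 change was 0.067 in ΔG and −0.10 in null (SE 0.20, limma adjusted p = 0.95 and 0.80). The sign in null turned with repeated quantile normalisation (0.12), so no direction is given. Trp53inp1, a stress protein that promotes p53 activity, had log2 changes of 0.17 and 0.070 and overlapped in both comparisons. After repeated quantile normalisation its change in null was 0.25 and passed (adjusted p = 0.039).

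Of 10 measured genes of cell death and survival, 3 rose in null cells and none fell (8.38% and 10.1% of all genes), and none passed in ΔG (0.813% of all genes). Dram1, a lysosomal membrane protein through which p53 promotes autophagy, changed most clearly. The WT arrays read 7.37, 7.64 and 7.46, the ΔG arrays 7.83, 7.89 and 7.71 and the null arrays 7.95, 8.03 and 8.08. The 3 genotypes did not overlap and were ordered WT, ΔG, null. Dram1 rose 1.44-fold in null (log2 change 0.53, SE 0.09, limma adjusted p = 0.0016), and it passed in all 19 alternative analyses of that comparison, with adjusted p-values of 0.00069 to 0.021. In ΔG the change was 0.32 (adjusted p = 0.14), and ΔG lay 0.21 below null (adjusted p = 0.17).

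Perp and Tnfrsf10b also rose in null, with wider spread. Perp, a membrane protein of desmosomes that can promote apoptosis, was at 8.27, 8.86 and 8.91 in WT, 9.07, 9.34 and 9.02 in ΔG and 9.17, 9.81 and 9.09 in null. All mutant arrays lay above all WT arrays, with WT replicate 1 and null replicate 2 far out on either side. The rise in null was 1.60-fold (log2 change 0.68, SE 0.20, limma adjusted p = 0.037). It lost its call when WT replicate 1, WT replicate 2, null replicate 1 or null replicate 2 was omitted, with log2 changes of 0.47, 0.77, 0.77 and 0.45 (adjusted p = 0.12, 0.051, 0.055 and 0.12). It was also lost with a trended and robust variance model (adjusted p = 0.073), in a fit of the 6 arrays compared (0.0502) and with Y-linked signal added to the model (log2 change 0.48, adjusted p = 0.40). Against WT replicate 3 alone the change of Perp was 0.45. In ΔG, Perp was 0.47 higher (SE 0.20, adjusted p = 0.39).

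Tnfrsf10b, a death receptor for the ligand TRAIL, was at 10.27, 10.29 and 9.95 in WT, 10.45, 10.64 and 10.56 in ΔG and 10.48, 10.78 and 10.40 in null. Again every mutant array lay above every WT array, and the mutants overlapped each other. The log2 change was 0.38 in both, with SE 0.12 in both. It passed in null (1.30-fold, limma adjusted p = 0.041) and not in ΔG (adjusted p = 0.20), and the difference between the mutants was −0.0021 with a 95% interval of −0.26 to 0.25. The call in null was lost without any one of the 3 WT arrays, null replicates 1 and 2 or ΔG replicate 2 (adjusted p = 0.050 to 0.14), and the change was 0.27 without WT replicate 3 or null replicate 2. It was also lost in a fit of the 6 arrays compared (adjusted p = 0.058). Against WT replicate 3 alone the change was 0.60.

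Eda2r, an X-linked receptor of the tumour necrosis factor family, was at 9.62, 9.68 and 9.66 in WT, 9.95, 9.90 and 9.86 in ΔG and 9.79, 10.02 and 9.74 in null. Every mutant array lay above every WT array, and WT replicate 3, which has the high Xist, lay between the other WT arrays. The log2 changes were 0.25 and 0.20 (SE 0.08, limma adjusted p = 0.23 and 0.13). Among the other death genes, Fas, the prototype death receptor, was 0.26 higher in ΔG with no overlap (adjusted p = 0.50) and 0.13 higher in null with overlap (adjusted p = 0.59). Pmaip1 and Bbc3, the BH3-only proteins Noxa and Puma, did not move alike: Pmaip1 was 0.29 and 0.33 higher in ΔG and null, and Bbc3 changed by −0.038 and 0.11. None of these passed (adjusted p = 0.17 to 0.91). Aen, a nuclease of apoptosis, Ei24, an autophagy protein of the endoplasmic reticulum, and Phlda3, an inhibitor of Akt, had log2 changes of 0.058 to 0.13 in both comparisons and overlapped WT.

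**Figure D5:**
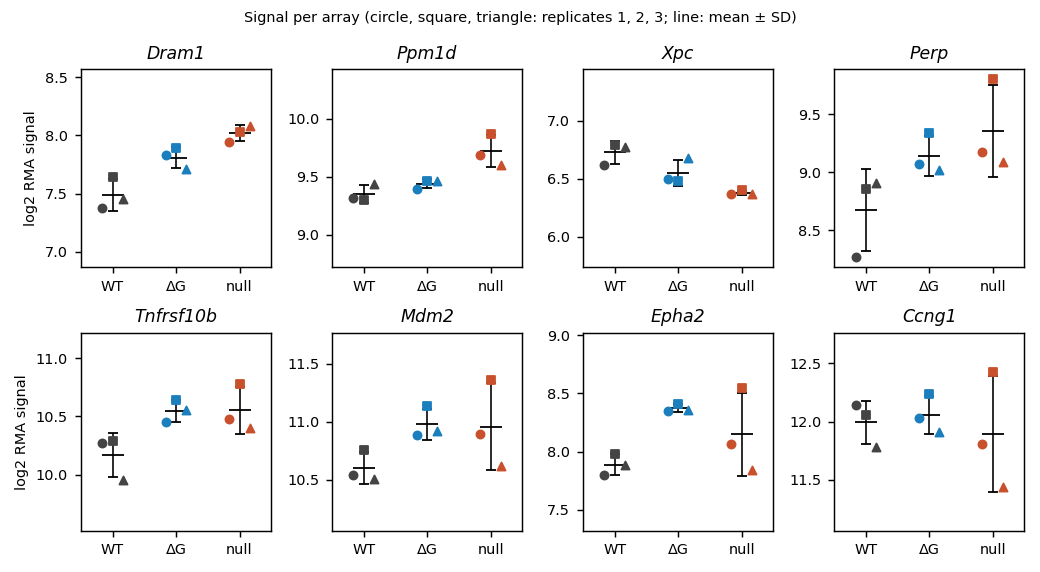
Log2 RMA signal on each array for 8 genes, with the mean and SD of each genotype (n = 3); every panel spans the same range on its y axis. Dram1 and Ppm1d are higher and Xpc is lower on all null arrays than on any WT array, Epha2 is higher on all ΔG arrays, and the 3 groups overlap for Ccng1.

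The 7 measured genes of growth control and stress held no call in any comparison. Of all genes, 0.813% were called in ΔG minus WT, 18.4% in null minus WT and 8.71% in ΔG minus null. Epha2, a receptor tyrosine kinase, had the largest change of the set in ΔG. It was at 7.80, 7.98 and 7.88 in WT, 8.35, 8.41 and 8.36 in ΔG and 8.06, 8.54 and 7.84 in null. The ΔG arrays lay within a narrow band above WT, while the null arrays reached from the WT range to above ΔG. The log2 change in ΔG was 0.48 (SE 0.14, limma adjusted p = 0.17), and it passed without null replicate 2 (0.023) and in a fit of the WT and ΔG arrays alone (0.036). In null the change was 0.26 (adjusted p = 0.24).

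Btg2, an antiproliferative cofactor of mRNA decay, was at 9.47 on all 3 WT arrays. It was at 9.83, 9.70 and 9.91 in ΔG and 9.82, 10.09 and 9.48 in null, and no mutant array fell below WT. Its log2 changes were 0.35 and 0.33 (SE 0.13, limma adjusted p = 0.30 and 0.097), and in null it passed without replicate 3 (0.49, adjusted p = 0.0090) and after repeated quantile normalisation (0.39, adjusted p = 0.031). The kinases Plk2 and Plk3 were 0.17 and 0.083 higher in ΔG and 0.068 and 0.22 higher in null, with overlapping groups. The sestrins, which restrain mTORC1, went apart: Sesn2 was 0.13 and 0.096 higher in ΔG and null, and Sesn1 changed by −0.12 and 0.045. Zmat3, an RNA-binding zinc finger protein, changed by 0.047 and 0.11. None of these 5 genes had an unadjusted p under 0.05 in limma, in either comparison. In ΔG minus WT 11.8% of all genes did, and in null minus WT 30%.

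The 5 DNA repair and nucleotide genes did not move together. Xpc, the damage sensor of nucleotide excision repair, was the gene of the set that fell in null. It was at 6.62, 6.79 and 6.78 in WT, 6.497, 6.48 and 6.68 in ΔG and 6.37, 6.401 and 6.37 in null. The null arrays were nearly equal and lay below all others. Xpc was dim, at the 48.5th percentile of all genes, and its null values lay near the array medians of 6.33 to 6.401. How much of such a signal is background was not tested. Xpc fell by 0.35 on the log2 scale in null (SE 0.08, limma adjusted p = 0.010), and in ΔG the change was −0.17 (adjusted p = 0.42). Against WT replicate 3 alone its change in null was −0.40, and with Y-linked signal added to the model it was −0.41 (adjusted p = 0.064).

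Rrm2b, the p53-induced small subunit of ribonucleotide reductase, was at 6.47, 6.58 and 6.69 in WT, 6.19, 6.55 and 6.46 in ΔG and 6.18, 6.28 and 6.37 in null. Its null arrays lay below all WT arrays, by 0.31 (SE 0.10, limma adjusted p = 0.057), and 6 of 19 alternative analyses called it. Rrm2b was dim as well, at the 46.5th percentile of all genes. Ddb2, the partner of Xpc in damage recognition, was instead 0.21 higher in ΔG without overlap (adjusted p = 0.27) and 0.047 higher in null. Ddb2 was the dimmest gene of the set, at the 45.6th percentile, with arrays at 6.24 to 6.56. How much of its signal is background was not tested either. Polk, a polymerase that copies past DNA lesions, was 0.31 higher in ΔG without overlap (adjusted p = 0.27) and 0.19 higher in null. Ercc5, the endonuclease Xpg, was 0.19 and 0.18 higher with overlapping groups. Ephx1, an epoxide hydrolase and the 1 measured metabolic gene, changed by 0.090 in ΔG and −0.18 in null.

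Other genes of the pathway were read from further lists of p53 regulators and targets, which were drawn up with earlier results of these data known. Of 26 regulators of p53, 24 were measured. In ΔG, 1 of them rose and none fell, and in null 4 rose and 3 fell, by limma's adjusted p. That is 29.2% in null, against 18.4% of all genes and 27.6% of the bright ones, and 4.17% in ΔG, against 0.813% and 1.27%. Both lists also hold genes dimmer than Ddb2, so the bright genes are not a matched reference for them. Chek1, a checkpoint kinase and an E2F target, rose 1.99-fold in ΔG and 2.56-fold in null (log2 changes 1.00 and 1.36, SE 0.09, adjusted p = 0.00080 and 9.3e-06). Atm, the kinase that signals DNA breaks to p53, averaged 8.05 ± 0.03 on the WT arrays, 8.33 ± 0.02 on the ΔG arrays and 8.71 ± 0.003 on the null arrays (SD, n = 3). It rose 1.57-fold in null (adjusted p = 5.1e-05), and its change of 0.28 in ΔG did not pass (adjusted p = 0.068).

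Chek2, the kinase downstream of Atm, and Wrap53, whose locus overlaps Trp53, rose by 0.53 and 0.42 in null (limma adjusted p = 0.014 and 0.028). Twist1, a transcription factor that restrains p53, fell by 0.46 (limma adjusted p = 0.011). Wrap53 had a wide spread in null, at 7.03, 7.46 and 6.92. The alternative analyses did not follow Chek2, Wrap53 and Twist1 one by one in null. Trp53bp1, a repair scaffold that binds p53, fell by 0.32 on the log2 scale, and Ppp1r13b, which directs p53 to apoptosis genes, fell by 0.42 (limma adjusted p = 0.0075 and 0.0051). In ΔG, Twist1 and Ppp1r13l changed by −0.22 and 0.30 and did not pass (adjusted p = 0.47 and 0.51). Cdkn2a, which encodes p19Arf and p16Ink4a from overlapping exons that this probe set does not tell apart, was at 7.77, 7.83 and 7.597 in WT, 7.96, 7.97 and 7.86 in ΔG and 7.79, 8.28 and 7.66 in null. Its log2 changes were 0.20 and 0.18 (SE 0.14 for both, adjusted p = 0.64 and 0.43), and the change in null was −0.0026 without null replicate 2. Between the mutants, 4 of the 24 regulators passed (16.7%), against 8.71% of all genes and 12.5% of the bright ones. Atm, Sirt1, a deacetylase of p53, and Chek1 were lower in ΔG than in null by 0.37, 0.40 and 0.36, and Ppp1r13b was 0.33 higher (adjusted p = 0.0042 to 0.032). With Y-linked signal added to the model, Atm, Sirt1 and Chek1 differed by −0.35, −0.28 and −0.32 and Ppp1r13b by 0.49, and none of these 4 passed (adjusted p = 0.20 to 0.51). That signal separates ΔG from null completely, and calls over all genes in this comparison went from 1737 to 53 with it. Of the 4, only Atm passed without any single array. Chek1, Ppp1r13b and Sirt1 lost their calls without ΔG replicate 1, ΔG replicate 2 or null replicate 1 (adjusted p = 0.062 to 0.13), and Chek1 and Ppp1r13b also without null replicate 3 (0.081 and 0.068).

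Of 46 further p53 targets, 42 were measured, and Cdkn1a was not analysed here. In null, 15 rose and 2 fell by limma's adjusted p, or 40.5% of the list against 18.4% of all genes and 27.6% of the bright ones. By direction, the risen and fallen genes in null were 35.7% and 4.76% of the list, against 8.38% and 10.1% of all genes. In ΔG 1 rose, Siva1, or 2.38% of the list against 0.602% of all genes. None fell in ΔG, against 0.211%. The list's median log2 change was 0.13 in ΔG and 0.16 in null, against −0.018 and −0.010 over all genes. Siva1, a proapoptotic protein, rose 1.40-fold in ΔG (log2 change 0.49, SE 0.10, adjusted p = 0.047) and 1.53-fold in null (adjusted p = 0.0013). Its call in ΔG was lost in 12 of 19 alternative analyses, among them the omission of any WT or ΔG array or of null replicate 1, at log2 changes of 0.44 to 0.57 (adjusted p = 0.051 to 0.16). Another of the 12, with WT arrays of the same sex pattern, is the same fit as the omission of WT replicate 3. Pidd1, a death domain scaffold, Pml, the organiser of nuclear bodies that hold p53, and the phosphatase Ptp4a3 were 0.69, 0.60 and 0.51 higher in ΔG, with no overlap and adjusted p-values of 0.063, 0.085 and 0.14. Without null replicate 2, and in a fit of the 6 arrays compared, all 3 passed in ΔG.

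The lowest p-values among these further targets in null belonged to Igfbp3, Ckap2, Notch1 and Siva1. Igfbp3, which binds insulin-like growth factors, averaged 11.996 ± 0.23 on the WT arrays, 11.55 ± 0.02 on the ΔG arrays and 10.64 ± 0.40 on the null arrays, which was 2.56-fold lower than WT (limma adjusted p = 0.00032). Ckap2, a spindle protein, rose 1.72-fold, and the receptor Notch1 rose 1.43-fold (adjusted p = 0.00045 and 0.0011). Between the mutants 5 of the 42 passed (11.9%, against 8.71% of all genes and 12.5% of the bright ones), among them Pdrg1, 0.43 higher in ΔG than in null (adjusted p = 0.026). Igfbp3 was 0.91 higher in ΔG than in null, and Ckap2, Notch1 and Cd82, a tetraspanin, were lower by 0.55, 0.36 and 0.47 (adjusted p = 0.0078 to 0.017). Igfbp3, Ckap2, Notch1 and Cd82 differed by 0.50, −0.58, −0.27 and −0.49 with Y-linked signal added to the model and did not pass (adjusted p = 0.27 to 0.53). Pdrg1 did not pass in that model either, and its values with an array omitted were not followed. Notch1 and Cd82 lost their calls without ΔG replicate 1 (0.074 and 0.079), Notch1 also without null replicate 2 (0.057) and Cd82 without ΔG replicate 2, null replicate 1 or null replicate 3 (0.058 to 0.079).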

How the data were processed

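Total RNA of 9 fibroblast cultures was measured on Affymetrix Mouse Gene arrays. The deposited values are log2 signals per probe set that the authors made with RMA, per the series text and the submitters' processing notes, which name RMA and affy. RMA corrects background, normalises by quantiles and summarises probes. Tool versions are not stated in the labels. Of 35511 probe sets with values, 21789 had 1 gene symbol in the platform annotation, 1621 had several and 12101 none; only the first kind named a gene. Of those, 21698 matched the RefSeq table by gene ID.

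All 19938 genes entered 1 limma fit (R 4.3.3 and limma 3.58.1), a means model of the genotypes that leaves 6 degrees of freedom. P-values were adjusted by Benjamini-Hochberg over all genes within each comparison, with a threshold of 0.05. The fit was tested on simulated data. The genes of the set and the lists were chosen with earlier results of these data known. Values on every array were to be given for called genes and for Mdm2, Ccng1 and Eda2r, and of each further list Cdkn1a, Cdkn2a and the 4 genes with the lowest p per comparison were named; the array values of Mdm4, Btg2, Epha2, Rrm2b and Cdkn2a, and the names Chek2, Wrap53 and Pdrg1, were added after their values were seen. The alternatives were other probe set summaries, variance models, scalings, filters, sample subsets, a replicate block, sex covariates and the omission of each array. Sequences come from the RefSeq promoter table for GRCm38.p6, in which 24 of the 32 genes were found. The number of arrays limits the precision.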

Additional observations from a re-analysis of the deposited data

How the results depend on the processing

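The subset with the WT array of the same sex pattern leaves 1 WT array in null minus WT, assumed to vary like the other groups. Over 19 alternatives (18 for ΔG minus null), the count of p53 members called in ΔG minus WT was 0, except 1 (Epha2) in a fit of the 6 arrays compared and 0 to 1 with an array omitted. In null minus WT it was 5, against 4 to 7 under the settings not named here, 10 with repeated quantile normalisation, 2 with the Y-linked mean as covariate, 2 against the WT array of the same sex pattern and 3 to 7 with an array omitted. In ΔG minus null it was 0, against 1 (Ppm1d) with array weights or repeated quantile normalisation and 0 to 1 with an array omitted. The members' median ranged from 0.13 to 0.20, 0.053 to 0.21 and −0.054 to 0.14 with an array omitted. Further pathway genes called were 2 in ΔG minus WT, against 5 with array weights, 4 in the fit of 6 arrays, 1 with probe sets averaged, with the Y-linked covariate or in same-sex WT arrays, and 1 to 6 with an array omitted. They were 24 in null minus WT, against 30 with array weights, 23 to 25 under the settings not named here, 11 with the Y-linked covariate, 12 against the same-sex WT array and 19 to 25 with an array omitted. They were 9 in ΔG minus null, against 17 with array weights, 0 with the Y-linked covariate and 3 to 12 with an array omitted. The cause of these shifts was not tested, and the subsets also hold fewer arrays.

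Signs turned only for changes that were not called. Ccng1 was −0.047 (Y-linked covariate), −0.039 (same-sex WT arrays) and −0.039 to 0.14 with an array omitted in ΔG minus WT, 0.12 (quantile), 0.15 (covariate), 0.11 (same-sex WT) and −0.37 to 0.12 (an array omitted) in null minus WT, and −0.044, −0.19 and −0.058 to 0.44 (quantile, covariate, an array omitted) in ΔG minus null. There Mdm2 was −0.084 (quantile), −0.16 (covariate) and −0.15 to 0.22 with an array omitted, and Cdkn2a −0.22 (covariate) and −0.11 to 0.20; in null minus WT Cdkn2a was −0.0026 to 0.30 with an array omitted.

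Equal array numbers deviated together for 4 of 9 pairs at a correlation over 0.1 (range −0.08 to 0.27). The pairs of replicate 2 were all among them (0.27, 0.18 and 0.12), and 6 of 9 arrays correlated best with an array of their own number. Because no label ties a number to a litter, the main fit did not take the numbers as pairs. Whether equal numbers share a litter was not tested. With the replicate block 7 members were called in null minus WT, Mdm2 (adjusted p = 0.039) and Rrm2b (0.021) being added, and 0 in the other comparisons. In ΔG minus WT the block called Pidd1 (0.016) and Pml (0.032) and not Siva1 (0.052). Further pathway genes called were then 3, 24 and 11. Over all genes, 162, 3678 and 1737 calls became 292, 4851 and 3697 with array weights, and with the Y-linked covariate 1580 were called in null minus WT and 53 in ΔG minus null; an omitted array gave 62 to 252, 2546 to 3895 and 762 to 2408.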
